A study of Mus musculus with 6 samples.

Results

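The 5 array probes described here, of 599 mouse miRNA probes, are mmu-miR-99a, mmu-miR-99b, mmu-miR-100, mmu-miR-125a-5p and mmu-miR-125a-3p. They were chosen by name, as the miRNAs that share genomic clusters with let-7 genes, apart from miR-125b. No measured value was a criterion, but earlier results of these data were known when the choice was made. They were measured in aSMCs, a primary mouse line that descends from renin-lineage cells of the kidney, taken at passage 7 and of a mixed 129Sv/C57Bl6 strain. The forskolin group (3 samples) received 10 µM forskolin, which activates adenylyl cyclase, with 100 µM IBMX, a phosphodiesterase inhibitor, for 24 h, and then 10 µM forskolin again 30 min before harvest. The control group (3 samples) was untreated, and no vehicle is named, so forskolin, IBMX and any solvent cannot be told apart. All cultures stood at about 80% confluence at treatment and were grown and harvested separately, from 1 primary line. The comparison asks which miRNA levels differ after cyclic AMP is raised in these cells.

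A miRNA is a short RNA that pairs with messenger RNAs mainly through its seed, bases 2 to 8 counted from 1 at the 5′ end, and lowers their translation and stability. The miR-99 and miR-100 family represses, among others, the messenger RNAs of the kinase mTOR and of the insulin-like growth factor receptor. miR-125 is the vertebrate counterpart of lin-4, the first miRNA found in the nematode Caenorhabditis elegans, and let-7 is a regulator of developmental timing in the same animal. In the fruit fly the miR-100, let-7 and miR-125 hairpins lie on 1 transcript, and mammals carry several copies of that cluster.

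The mature sequences are shown because 3 of the 5 miRNAs share a seed and could be read by each other's probes; miR-125b-5p, miR-351 and miR-10a, which are not members, stand for the relatives described further on. They are those of RefSeq (GRCm38.p6), written 5′ to 3′ with the seed in capitals, and all 5 members matched an entry.
mmu-miR-99a: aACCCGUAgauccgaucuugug
mmu-miR-100: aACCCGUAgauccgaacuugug
mmu-miR-99b: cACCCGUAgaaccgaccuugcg
mmu-miR-125a-5p: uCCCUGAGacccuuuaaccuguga
mmu-miR-125a-3p: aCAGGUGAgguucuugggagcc
mmu-miR-125b-5p: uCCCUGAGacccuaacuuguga
mmu-miR-351: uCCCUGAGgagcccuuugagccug
mmu-miR-10a: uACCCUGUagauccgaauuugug
The seed ACCCGUA belonged to 3 probes of the array, miR-99a, miR-99b and miR-100. miR-99a and miR-100 differ by a single base, U16A (the base of miR-99a, its position, then that of miR-100), whereas miR-99a and miR-99b differ at 4 positions, A1C, U11A, U16C and U21C. The seed CCCUGAG belonged to 3 probes, miR-125a-5p, miR-125b-5p and miR-351. miR-125a-5p, of 24 bases, shares its first 13 and its last 5 bases with miR-125b-5p, of 22 bases. miR-125a-3p comes from the other arm of the Mir125a hairpin and was the only probe on the array with the seed CAGGUGA.

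The 5 miRNAs come from 3 clusters on the plus strand, each with 1 gene of the miR-99 and miR-100 family, 1 let-7 gene and 1 miR-125 gene in that order. On chromosome 16, miR-99a lies at chr16:77598940-77598961, and the mature let-7c of Mirlet7c-1 and miR-125b-5p of Mir125b-2 start 732 and 47339 bases further on. RefSeq lists no gene around Mir99a. On chromosome 9, miR-100 lies at chr9:41531437-41531458 inside the long non-coding RNA gene Mir100hg. There miR-125b-5p of Mir125b-1 starts 50503 bases further on. For Mirlet7a-2 the RefSeq set used here holds only 1 mature product, which is not let-7a and starts 5340 bases after miR-100. The distance to let-7a itself is therefore not given. On chromosome 17, miR-99b lies at chr17:17830194-17830215 inside the protein-coding gene Spaca6, with let-7e 172 bases further on. miR-125a-5p follows at chr17:17830817-17830840 and miR-125a-3p at chr17:17830855-17830876, so that this cluster is the most compact of the 3. Mature miR-125b-5p has the same sequence from both of its loci, and let-7c has a second copy on chromosome 15, so their probes do not tell these loci apart.

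Each array carried 5 spots of every probe. Detection required a probe's average spot to stand more than 3 SD of the 669 empty spots above their average, and 167 probes detected in every sample of at least 1 group were tested. Mean empty-spot intensity was 192.1 in the Cy3-stained forskolin sample and 32.6 and 34.9 in the Cy5-stained ones, against 131.2 and 200.1 in the Cy3-stained control samples and 31.6 in the Cy5-stained one. The number of detected probes ranged from 175 to 585 in forskolin and from 162 to 225 in control samples. All 5 members were detected in 6 of 6 samples. The smooth muscle miRNAs miR-143, miR-145 and miR-145* were all tested, and their log2 fold changes of -0.53, -0.36 and 0.17 did not pass (adjusted p 0.408 to 0.712). Of 24 marker miRNAs of other cell types 3 were tested, the epithelial miR-192 and miR-194 (log2 fold change 0.12 and 0.30) and the striated muscle miR-206 (-0.29), also without passing. miR-192 and miR-194 were each detected in 3 forskolin samples but 1 control sample, so the forskolin group alone brought them into the test. None of the 2 endothelial, 6 blood, 2 neural and 1 liver markers was tested. In bulk RNA, fewer cells with a miRNA and less of it per cell cannot be told apart.

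None of the 5 miRNAs passed the threshold for a difference between forskolin and control cultures. The level of miR-100 was lower in all 3 forskolin samples than in any control sample, by 1.48-fold in the fit, without passing after adjustment. The forskolin group lay wholly below the control group for 14.4% of all tested probes. miR-99a, miR-125a-5p and miR-125a-3p had overlapping groups. Whether the miR-99b groups overlapped depended on how its spots were summarised, while the sign within same-numbered pairs did not. limma's test with a dye term and Benjamini-Hochberg adjustment called 0 of 5 members at an adjusted p of 0.05, against 9 of 167 tested probes (5.39%), 4 higher and 5 lower. At an unadjusted p of 0.05 it called 1 of 5, miR-100, against 19.8% of all tested probes. The members' log2 fold changes were positive for 1 and negative for 4, among them miR-125a-5p at -0.0080, with a median of -0.14. Over all 167 tested probes 78 were positive and 89 negative, with a median of -0.02.

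**Figure D1:**
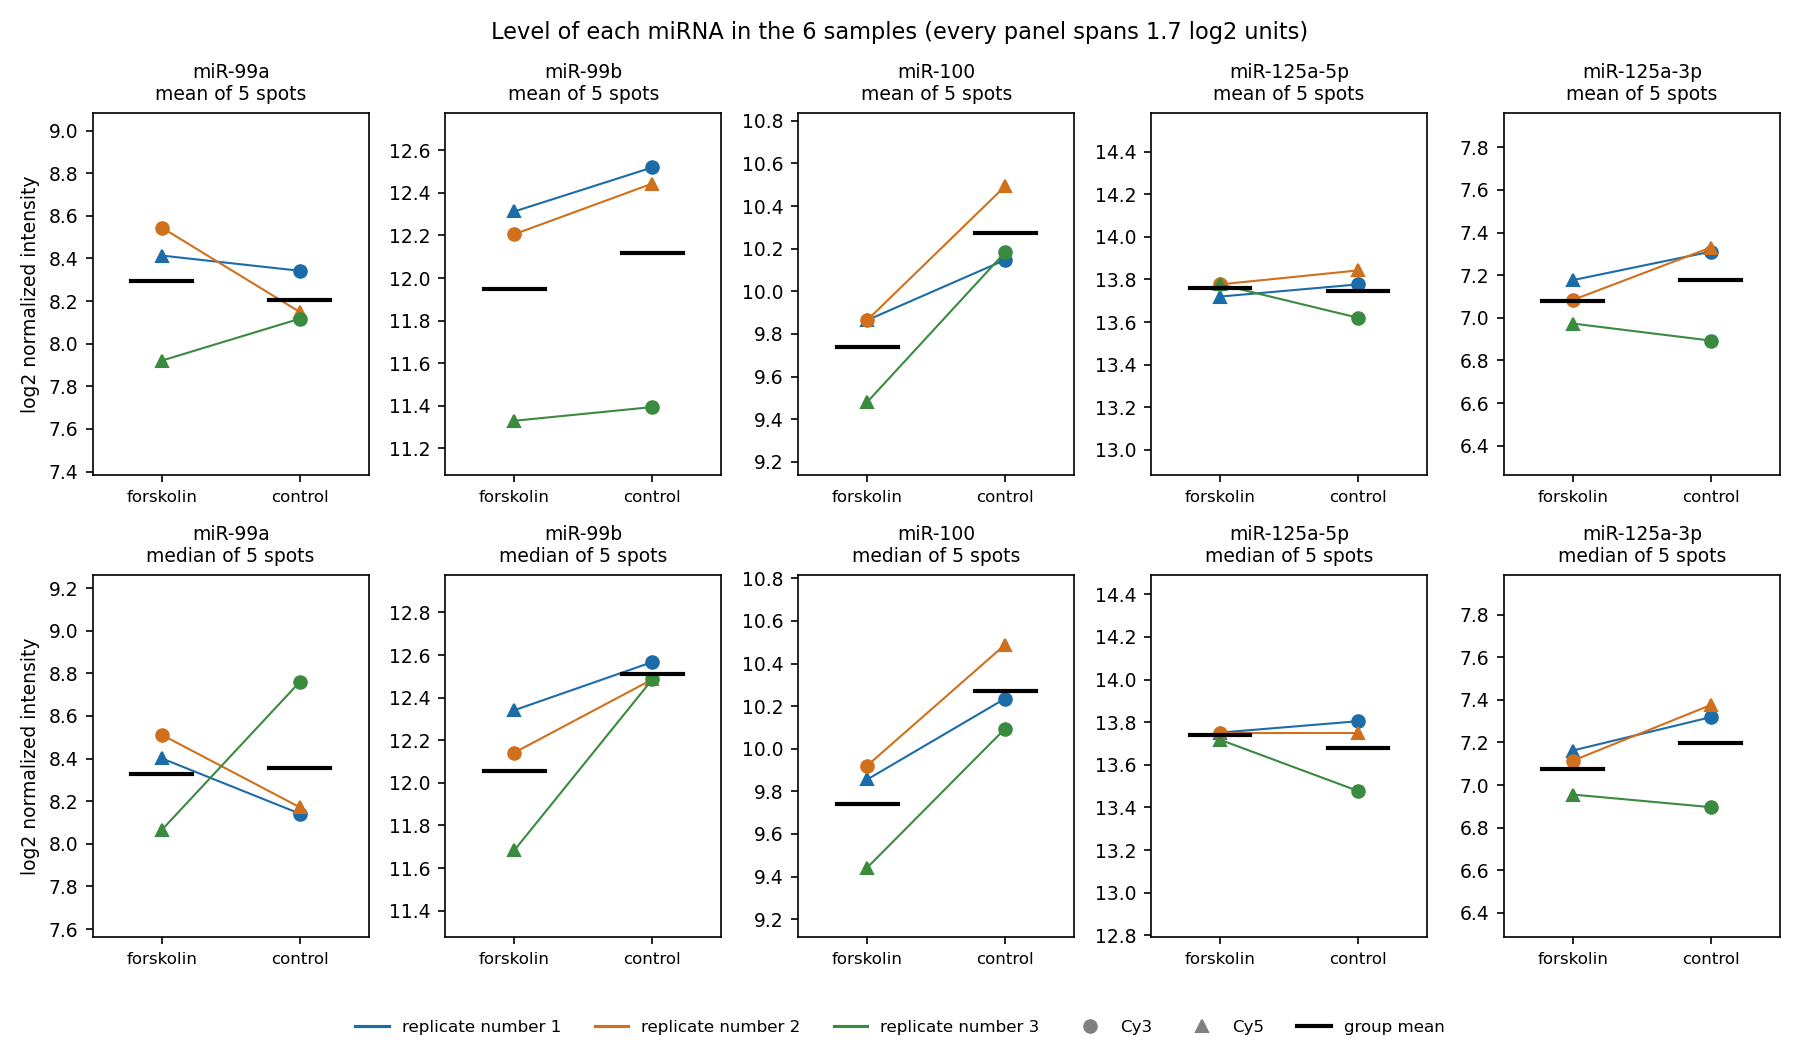
Log2 normalized intensity (vertical axis) of the 5 miRNAs in forskolin (left in each panel) and control samples (right), with the mean of log2 spots in the upper and the median in the lower row; each point is 1 sample and every panel spans the same number of log2 units. The miR-100 groups do not overlap in either row, and those of miR-99b do not overlap with the median only.

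miR-100 had log2 normalized intensities of 9.86, 9.86 and 9.48 in forskolin samples 1 to 3, against 10.15, 10.49 and 10.18 in control samples 1 to 3. The highest forskolin sample lay below the lowest control sample, as it did for 24 of 167 tested probes (14.4%). In the authors' deposited table the same miRNA had intensities of 818, 915 and 617 in forskolin and 1192, 1319 and 1196 in control samples, again without overlap. There the forskolin group lay wholly below control for 16.8% of tested probes.
The means were 9.74 ± 0.22 in forskolin and 10.28 ± 0.19 in control cultures (SD, n = 3 each). The fitted log2 fold change was -0.56 (SE 0.23, 95% interval -1.11 to -0.01) with an adjusted p of 0.241 (unadjusted 0.0474, limma). Samples that carry the same replicate number differed by -0.28, -0.63 and -0.70, so that forskolin was lower in 3 of 3 pairs, which also held for 26.3% of tested probes. Within a dye, each difference sets 1 sample against the mean of 2. It was -0.30 for Cy3 (forskolin 2 against controls 1 and 3) and -0.82 for Cy5 (forskolin 1 and 3 against control 2). miR-100 signal was 8.19 to 25.7 times that of empty spots, and no spot of its probe lay over 1 log2 unit from the median of its 5 spots.

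miR-99a differs from miR-100 by 1 base and did not show the same separation. miR-99a signal was 2.34 to 8.19 times that of empty spots. Its log2 normalized intensities were 8.41, 8.55 and 7.92 in forskolin and 8.34, 8.15 and 8.12 in control samples. Both the highest and the lowest value belonged to forskolin samples, so the groups overlapped. The means were 8.29 ± 0.33 in forskolin and 8.20 ± 0.12 in control cultures (SD, n = 3 each). The fitted log2 fold change was 0.17 (SE 0.23, 95% interval -0.39 to 0.73, adjusted p 0.788, limma), an interval that holds changes in both directions.

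miR-99b, from the chromosome 17 cluster, had log2 normalized intensities of 12.31, 12.21 and 11.33 in forskolin and 12.52, 12.44 and 11.39 in control samples. Both samples numbered 3 were lower than the other 4. Same-numbered samples differed by -0.21, -0.24 and -0.06, with forskolin lower in 3 of 3 pairs, as for 26.3% of tested probes. The means were 11.95 ± 0.54 in forskolin and 12.12 ± 0.63 in control cultures (SD, n = 3 each), and the fitted log2 fold change was -0.19 (SE 0.44, 95% interval -1.23 to 0.86, adjusted p 0.863, limma). That fit had no term for replicate number. With replicate numbers blocked and dye modelled, the same estimate had an SE of 0.18 (95% interval -0.70 to 0.33, adjusted p 0.629, limma). Within a dye, again 1 sample against 2, the difference was 0.25 for Cy3, which includes control 3, and -0.62 for Cy5, which is opposite in sign.

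The samples numbered 3 held single dim spots. One of the 5 miR-99b spots read 666 in forskolin 3, where the median spot read 3325, and 998 in control 3, where the median read 8872. A miR-99a spot in the next row of the same column of the array read 64.7 in forskolin 3, against a median spot of 231, and 270 in control 3, against 1046. These 4 spot values, all in replicate 3, were the only ones of the members' 25 spots in each sample that lay over 1 log2 unit from the median of their probe. Without them, the SD among the log2 spots of a probe was 0.0553 to 0.201 for miR-99a and 0.0125 to 0.144 for miR-99b. They are 2 positions, each read in both samples of that number and under both dyes. Over all probes, the 3 same-numbered pairs shared 17 such spots and the 12 other pairs 0, so 2 samples of a number may have been read from 1 chip, which the labels do not state. What made these neighbouring positions dim was not tested.

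**Figure D2:**
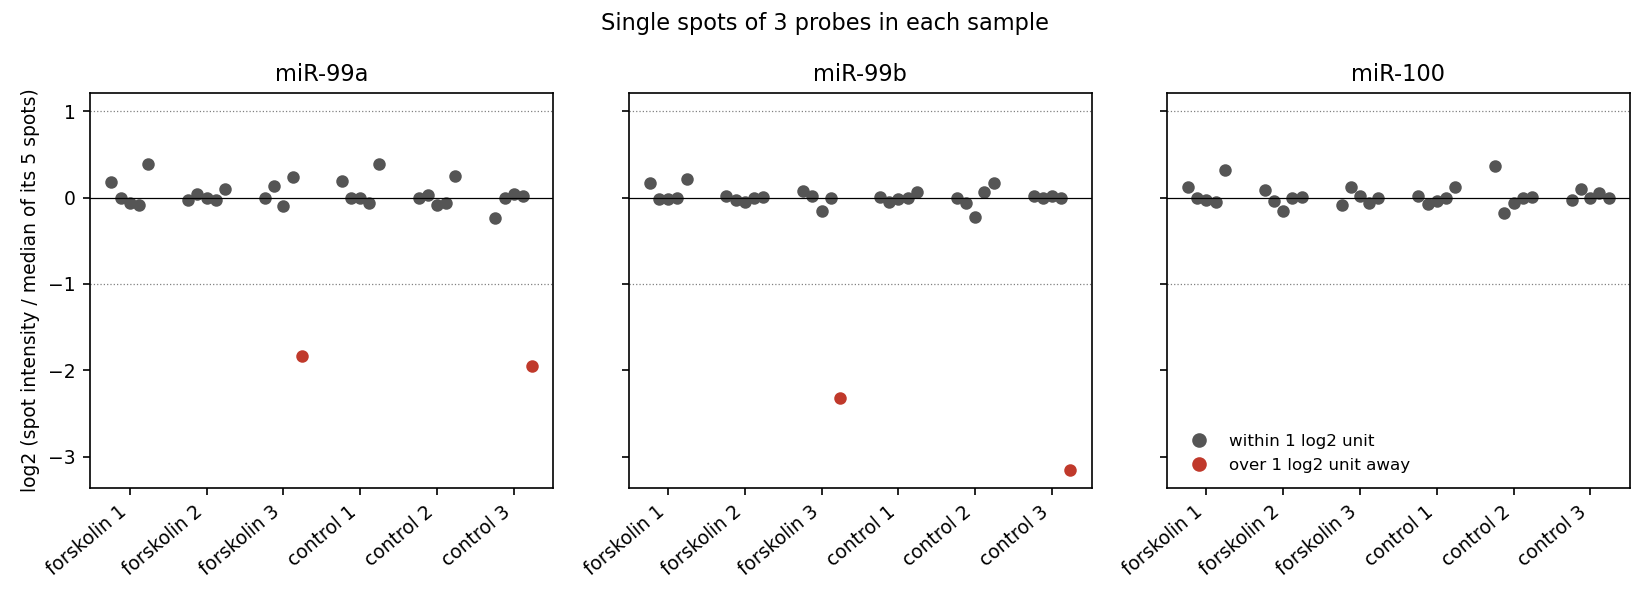
Log2 ratio of each spot to the median of its probe (vertical axis) in the 6 samples for 3 probes; each point is 1 of 5 spots. One miR-99a spot and one miR-99b spot are dim in both samples numbered 3, and miR-100 has none so far from its median.

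With the median of the spots in place of the mean, the log2 intensity of miR-99b was 12.34, 12.14 and 11.68 in forskolin and 12.57, 12.49 and 12.49 in control samples. Forskolin 3 remained the lowest, while control 3 now stood with the other two, and the groups no longer overlapped (14.4% of tested probes had forskolin wholly below control). Same-numbered samples differed by -0.23, -0.34 and -0.80, lower in 3 of 3 pairs, as for 27.5% of tested probes. The means were 12.06 ± 0.34 in forskolin and 12.51 ± 0.05 in control cultures (SD, n = 3 each), and the fitted log2 fold change was -0.43 (SE 0.23, 95% interval -1.01 to 0.15, adjusted p 0.378, limma). The fit to medians called 2.99% of tested probes. The within-dye differences were then -0.38 for Cy3 and -0.47 for Cy5, of the same sign. In the authors' deposited table miR-99b had intensities of 5284, 4895 and 3431 in forskolin and 5655, 5415 and 5075 in control samples. Forskolin 1 exceeded control 3 there, so the groups overlapped. Same-numbered samples differed there by -371, -520 and -1644.

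The median moved miR-99a in control 3 as well. Its log2 intensities were 8.40, 8.51 and 8.06 in forskolin and 8.14, 8.17 and 8.76 in control samples, so that control 3 became the highest of the 6 and the groups still overlapped. The fitted log2 fold change was 0.06 (SE 0.24, 95% interval -0.54 to 0.66, adjusted p 0.892, limma). miR-100, which had no dim spot, stayed at -0.54 (SE 0.23, 95% interval -1.12 to 0.03, adjusted p 0.311, limma).

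miR-125a-5p, from the 5′ arm of Mir125a, was the member with the narrowest spread after quantile normalization. Its log2 normalized intensities were 13.72, 13.78 and 13.78 in forskolin and 13.78, 13.84 and 13.62 in control samples, with 3 samples at the same value because quantile normalization gives probes of equal rank equal values. The control samples held both the highest and the lowest value. The deposited table gave 14008, 14406 and 13913 in forskolin and 13740, 14935 and 12238 in control samples, again with overlap. The means were 13.76 ± 0.03 in forskolin and 13.75 ± 0.11 in control cultures (SD, n = 3 each), and the fitted log2 fold change was -0.0080 (SE 0.19, 95% interval -0.47 to 0.45, adjusted p 0.980, limma). The sign of a value this close to 0 differed between ways of scaling and summarising. The narrow spread also depended on the scaling. When samples were scaled to the median of detected probes instead, the SE of miR-125a-5p was 0.39. It was then 0.35 for miR-100, 0.36 for miR-99a, 0.38 for miR-125a-3p and 0.45 for miR-99b.

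miR-125a-3p, from the opposite arm, gave a signal only 1.46 to 2.68 times that of the empty spots. Its log2 normalized intensities were 7.18, 7.08 and 6.97 in forskolin and 7.31, 7.33 and 6.89 in control samples. The control samples again held both extremes. The means were 7.08 ± 0.10 in forskolin and 7.18 ± 0.25 in control cultures (SD, n = 3 each), and the fitted log2 fold change was -0.14 (SE 0.22, 95% interval -0.67 to 0.39, adjusted p 0.788, limma). The offset of 50 added before logarithms understates changes at this intensity.

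The clusters' other products gave no call either. Of the 4 locus partners, all tested, 0 passed in limma's fit, with 3 positive log2 fold changes, 1 negative and a median of 0.13. The locus partners' values also differed between the spot values and the authors' deposited table. let-7a, encoded beside miR-100 and at other loci, had log2 intensities of 14.72, 14.93 and 14.93 in forskolin and 14.72 in every control sample, with a log2 fold change of 0.16 (adjusted p 0.753). Its intensities in the authors' deposited table were 26109, 26760 and 27974 in forskolin, wholly below 28471, 28832 and 29517 in control samples, and the log2 fold change had the opposite sign, at -0.10 (adjusted p 0.761). Forskolin lay wholly below control in that table for 16.8% of tested probes. For let-7c, beside miR-99a, the log2 fold change was 0.12 (adjusted p 0.788), and for let-7e, beside miR-99b and miR-125a, it was 0.13 (adjusted p 0.863).
miR-125b-5p, which the miR-99a and miR-100 clusters both encode, had log2 intensities of 14.93, 14.61 and 14.34 in forskolin and 14.93, 14.93 and 15.24 in control samples, overlapping at the shared value. Its log2 fold change was -0.39 (SE 0.25, 95% interval -0.98 to 0.21, adjusted p 0.460). Its intensities in the authors' deposited table were 26554, 23384 and 16822 in forskolin and 36971, 34627 and 41613 in control samples, without overlap, and the log2 fold change was -0.73 (SE 0.24, 95% interval -1.32 to -0.13, adjusted p 0.141). Such a separation, with forskolin lower, held there for 16.8% of tested probes. miR-125b-5p was the only partner with a negative log2 fold change in the fit to spot values, whereas in the fit to the table let-7a and let-7c (-0.04) were negative too.

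Passenger strands, the arms of a hairpin that are mostly degraded, were on the array for 4 of the clusters' hairpins: let-7c-1*, miR-125b*, miR-125b-3p and miR-99b*. Their signals were 1.01 to 1.30 times those of empty spots, each was detected in at most 2 of 6 samples, and 0 of 4 were tested. miR-125a-3p, from the second arm of Mir125a, was detected in 6 of 6 samples.

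Among miRNAs that share a seed with miR-125a-5p, miR-351 had the larger difference. This miRNA, encoded on the X chromosome at chrX:53053315-53053338 on the minus strand, had log2 intensities of 10.46, 10.40 and 10.15 in forskolin, against 9.22, 9.51 and 8.41 in control samples. Every forskolin sample exceeded every control sample, and the groups did not overlap for 25.7% of tested probes in either direction. Its log2 fold change was 1.19 (SE 0.32, 95% interval 0.43 to 1.95), with an adjusted p of 0.0873 (limma).
The call on miR-351 depended on the fit: the adjusted p was 0.0821 when replicate numbers were blocked and dye was modelled (a fit that called 0 of 167 probes, and 39 at an unadjusted p of 0.05). It was 0.0141 with the block and no dye term, which called 15% of tested probes. miR-10a and miR-10b, counted in the same superfamily as miR-99 and miR-100 but with the seed ACCCUGU, had log2 fold changes of 0.71 and 0.92 (adjusted p 0.241 and 0.183), and with the block and no dye term 0.79 and 0.98 (adjusted p 0.0710 and 0.0347). In those same 3 fits the lowest adjusted p of any member was that of miR-100, 0.0789 with the block and no dye term.

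**Figure D3:**
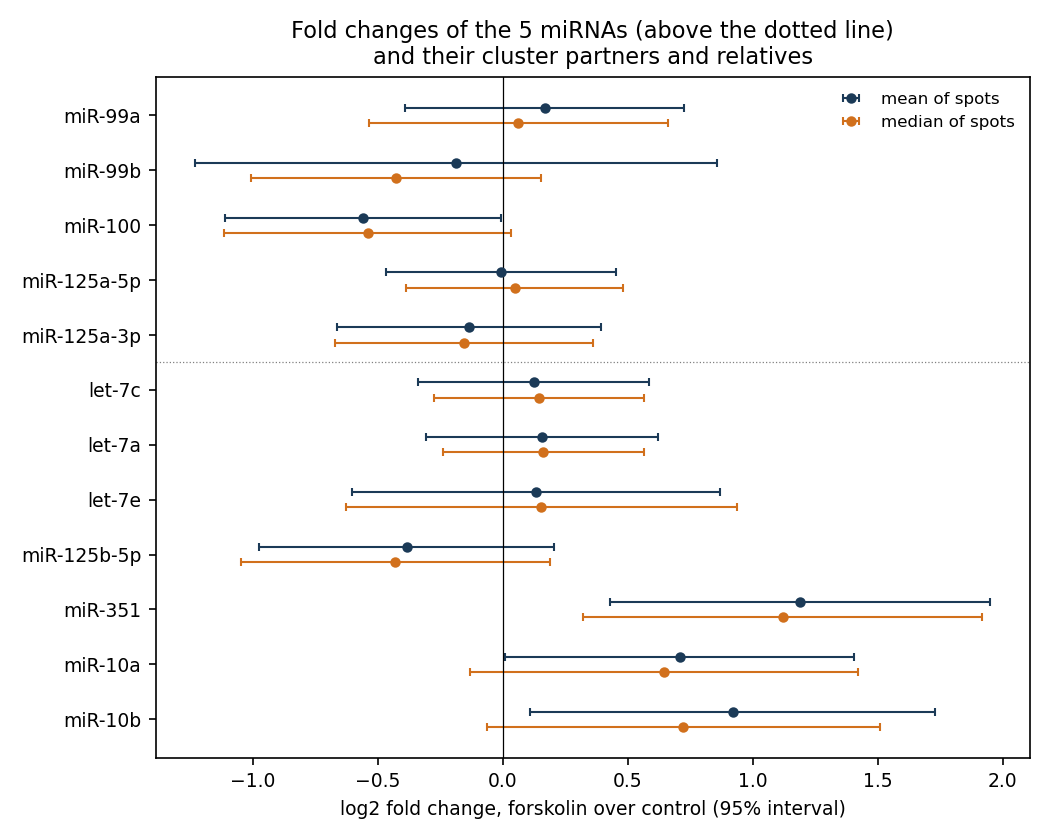
Log2 fold change of forskolin over control with its 95% interval (horizontal axis) for the 5 miRNAs, above the dotted line, and for cluster partners and relatives below it, from the mean and from the median of log2 spots. The intervals of miR-351 lie above 0, and that of miR-100 ends at -0.01 with the mean and at 0.03 with the median.

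Probes differ in affinity, so the loci were compared by how the difference of log2 intensities within a sample shifted between the groups. A constant shared by all log2 values of a sample does not touch this difference, but the offset of 50 and quantile normalization can change it. The 4 pairs of counterparts were compared by a two-sided exact permutation test over the 6 samples, whose smallest possible p is 0.1 with 3 against 3 samples. This test took no account of dye. The dye coefficient (Cy5 over Cy3) in limma's fit was -0.23 for miR-99a and 0.07 for miR-100. The miR-99a minus miR-100 difference was -1.45, -1.32 and -1.56 in forskolin, against -1.81, -2.34 and -2.07 in control samples. Every forskolin sample was above every control sample, and the mean shift of 0.63 had the smallest possible exact p of 0.1 (adjusted over 4 comparisons, 0.4). With signs flipped within replicate numbers instead, its p was 0.25, the smallest possible in that test. Among all 13861 pairs of tested probes, 33.5% showed no overlap of this kind in either direction.
With the median of the spots, the shift was 0.50, and control 3, at -1.34, then lay above all forskolin samples (exact p 0.4, with no overlap for 35.1% of all pairs). In the authors' deposited table, on the log2(value + 50) scale, it was 0.71 without overlap (exact p 0.1, adjusted 0.133, with no overlap for 35.3% of all pairs there). The shift was 0.50 with spots over 1 log2 unit from their probe's median left out and 0.57 with spot intensities averaged before logarithms, each with an exact p of 0.1, and 0.69 (exact p 0.2) with plain background subtraction. The groups thus overlapped with the median and with plain subtraction, and not with the other summaries of the spots.

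The other pairs of the family overlapped between groups with both summaries of the spots. miR-99a minus miR-99b shifted by 0.26 with the mean (exact p 0.5, adjusted 0.6) and by 0.43 with the median (exact p 0.2). miR-100 minus miR-99b shifted by -0.37 with the mean (exact p 0.6, adjusted 0.6) and by -0.08 with the median (exact p 0.7). In the authors' deposited table miR-100 minus miR-99b shifted by -0.37 without overlap (exact p 0.1, adjusted 0.133, with no overlap for 35.3% of all pairs there).
The miR-125a-5p minus miR-125b-5p difference was -1.21, -0.83 and -0.56 in forskolin and -1.15, -1.09 and -1.62 in control samples, a shift of 0.42 with overlap (exact p 0.3, adjusted 0.6). In the authors' deposited table this pair shifted by 0.84 without overlap (exact p 0.1, adjusted 0.133), beside 35.3% of all pairs there.

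**Figure D4:**
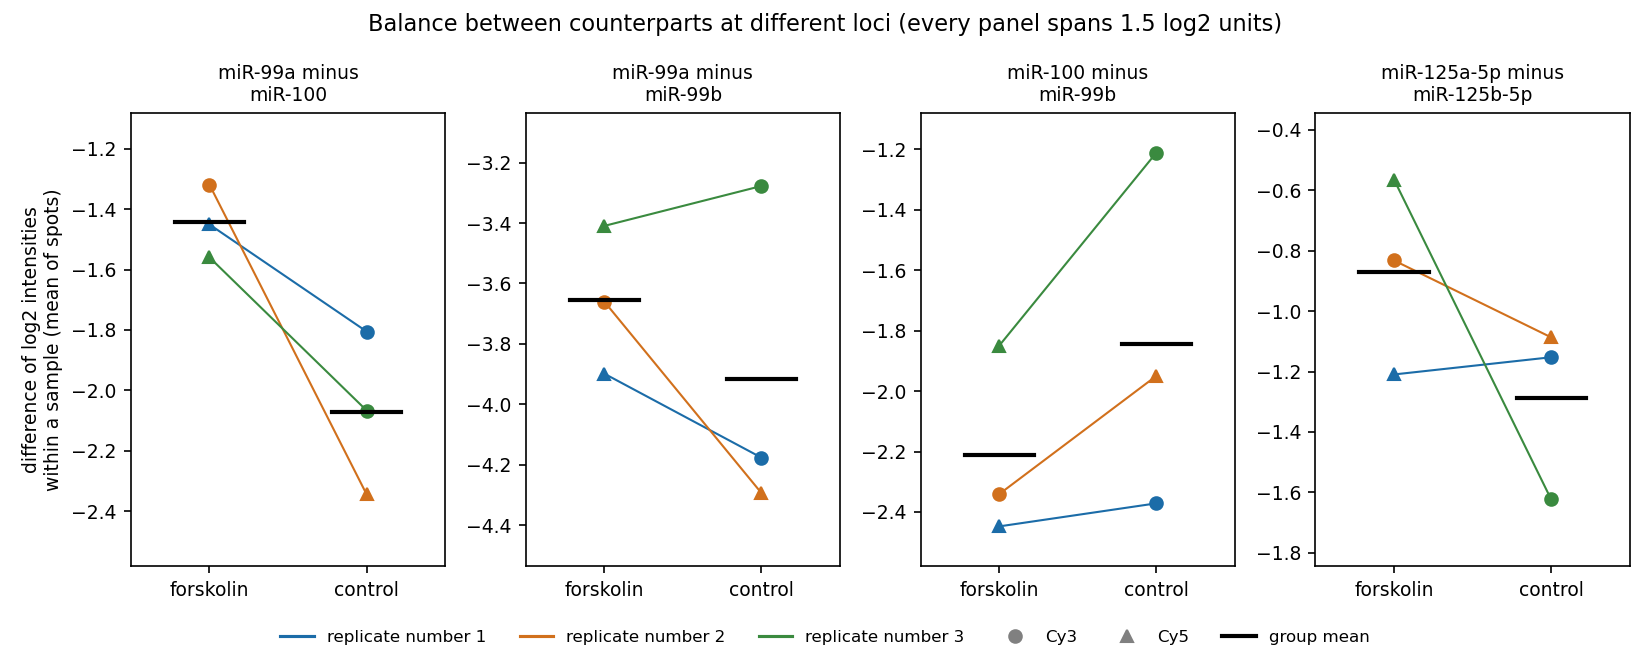
Difference of log2 intensities within a sample (vertical axis, mean of spots) for 4 pairs of counterparts from different loci, in forskolin (left) and control samples (right); each point is 1 sample. The groups are apart for miR-99a minus miR-100 and overlap in the other panels.

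The probes whose centred log2 values over the 6 samples lay closest to each member were found by the root mean square difference. With the mean of the spots, the closest to miR-100 were miR-130b (0.17), miR-28 (0.18) and miR-22 (0.19). The closest to miR-125a-5p were let-7c (0.06), let-7d (0.07) and miR-331-3p (0.08), and to miR-125a-3p miR-378 (0.06), miR-140* (0.09) and miR-324-5p (0.10). The closest to miR-99a was miR-24 (0.14) and to miR-99b miR-501-3p (0.17). With the median of the spots, the closest probe was a different one for each of the 5 members: miR-23a (0.12) for miR-99a, miR-143 (0.07) for miR-99b, miR-99b itself (0.15) for miR-100, miR-709 (0.03) for miR-125a-5p and miR-34b-3p (0.07) for miR-125a-3p.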

How the data were processed

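Small RNA was tailed, stained with Cy3 or Cy5 and hybridised by a service provider, per the labels. The deposited spot files hold 1 intensity per spot, a mean density without background subtraction, per the file headers, with no scanner named in the sources used here. The authors' deposited table of intensities, used as an alternative, correlated with the spots at 0.996 to 0.999 on the log2 scale (column medians 11, 11 and 10 in forskolin and 10, 11 and 8 in control samples); how it was normalized is unknown.

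Spots were corrected by normexp (offset 50), log2 values of a probe's 5 spots averaged, and samples quantile-normalized over 599 probes (limma 3.58.1, R 4.3.3). The fit over 167 probes had terms for forskolin and dye, with two-sided tests, Benjamini-Hochberg adjustment and a threshold of 0.05. The pipeline was tested on simulated data. Those data held changes larger than any fitted for the members and no pairing, so they do not show how smaller or paired changes are handled. The offset is part of every fold change. A term for dye was used because forskolin samples were 2 Cy5 and 1 Cy3 and control samples 1 Cy5 and 2 Cy3. Deviations from group means correlated at 0.432, 0.455 and 0.363 between samples numbered 1, 2 and 3, and these 3 pairs shared 17 far spots, against 0 for the 12 other pairs, so the numbers were taken to pair the samples. This pairing comes from the data; the labels give only the numbers, and each replicate is described as having an array of its own.

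Named miRNAs were the 5 members, their locus partners, probes of equal seed, miR-10a and miR-10b, passenger strands of these hairpins and the closest probes by pattern. Members and lists were chosen with earlier results of these data known.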

Additional observations from a re-analysis of the deposited data

How the results depend on the processing

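The count of members past the threshold was 0 in limma's fit and in all 26 alternatives, with 1 of 5 (miR-100) or 0 at an unadjusted p of 0.05. miR-100 kept a negative log2 fold change in 25 of 26 (adjusted p there 0.0789 to 0.856), and miR-99a a positive one in every alternative. Without normalization, which moved the median of all tested probes to 0.48, values were 0.52 for miR-99b, 0.20 for miR-100, 0.78 for miR-125a-5p and 0.20 for miR-125a-3p; relative to that median miR-100 was at -0.28 and miR-125a-3p at -0.29. Scaling to the 75th percentile and to the median of detected probes shifted that median to -0.16 and -0.23, with miR-125a-3p at -0.45 and -0.52 (-0.28 with plain subtraction). miR-125a-5p changed sign under both scalings, at 0.14 and 0.068, and at 0.047 with the median of spots, 0.011 without the dye term, 0.027 in the authors' table and 0.022 with spot intensities averaged. Leaving out 1 sample or number gave 0.02 to 0.34 for miR-99a, -0.64 to 0.27 for miR-99b (0.05 without forskolin 3, 0.0071 without control 1 and 0.27 without control 2), -0.84 to -0.28 for miR-100 (without forskolin 2 and without control 2), -0.099 to 0.076 for miR-125a-5p and -0.24 to -0.02 for miR-125a-3p. In the same leave-outs the locus shifts ranged from 0.49 to 0.77, 0.08 to 0.64, -0.65 to 0.0040 (without control 3) and 0.26 to 0.64, in the order reported, and over the other alternatives from 0.50 to 0.71, 0.09 to 0.45, -0.47 to -0.08 and 0.42 to 0.84; that of miR-125a-5p minus miR-125b-5p was 0.76 with cyclic loess and 0.66 without normalization (exact p 0.1 each). With the replicate block, miR-100 was at -0.56 with the dye term (adjusted p 0.218) and at -0.54 without it, miR-125a-5p at 0.011 without the dye term and at 0.047 with the median, block and dye term; the pairing changed no member's call. Sign flips within replicate numbers, whose p cannot go below 0.25, gave 0.25, 0.5, 0.25 and 0.5 for the locus shifts in the same order. Over all tested probes 9 were called (4 higher, 5 lower), against 5 with the median of spots, 5 scaled to the median (3 higher, 2 lower), 5 without normalization (5 higher, 0 lower), 6 with plain subtraction, 9 at the 75th percentile (5 higher, 4 lower), 1 without a filter, 18 without the dye term, 23 with array weights, 0 with block and dye term (39 at an unadjusted p of 0.05), 25 with the block alone, 27 with the median, block and dye term, and 0 to 9 in leave-outs (18 to 43 unadjusted). Alternatives on far spots, averaged intensities and the median with the block were chosen after seeing the data. The fit without replicate 2 was not run, since dye and group then coincide. The causes of these shifts were not tested. The number of samples limits precision, and miR-125a-3p lies near the empty spots.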
